A study of Mus musculus with 6 samples.

Results

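Potassium channel genes were compared between the floor plate and the ventral lateral tissue of the embryonic mouse midbrain. They were taken by name: every probe set annotated to a single gene symbol that starts with Kcn, followed by subfamily letters and a number, except the imprinted non-coding RNA gene Kcnq1ot1. This gave 161 of 45101 probe sets, for 83 of the 18193 genes named on the array. Of these genes, 81 encode a pore-forming or auxiliary channel subunit, and Kcnmb4os1 and Kcnmb4os2 are non-coding RNA genes named for the strand opposite Kcnmb4. A probe set is a group of short array probes read together for 1 or more transcripts, and 45 of the 83 genes had more than 1. The samples came from C57BL/6 embryos of mixed sex at embryonic day 10.5, with no transgene or treatment named. The floor plate is the ventral midline strip from which midbrain dopaminergic neurons arise, and the ventral lateral region lies beside it without overlap. There were 3 floor plate and 3 ventral lateral samples, each pooled from 6 embryos, so differences between single embryos cannot be seen. The labels do not say whether the pools were made from separate dissections or shared embryos, and the p-values therefore cover only how these 6 samples vary.

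Potassium channels let potassium leave or enter the cell and thereby set its resting potential and end its action potentials. Voltage-gated channels of the Kcna, Kcnc, Kcnd, Kcnq and Kcnh subfamilies open when the membrane depolarises. Inward rectifiers (Kcnj) and tandem-pore leak channels (Kcnk) are open near rest and hold it there, and the Kcnn channels and most Slo channels respond to calcium or sodium inside the cell. Auxiliary subunits (Kcnab, Kcne, Kcnip, Kcnmb) form no pore of their own and change the gating or surface level of the pore subunits. In the embryonic neural tube, progenitor cells rest on leak and inward rectifier currents, and voltage-gated currents are acquired as neurons differentiate.

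Of the 83 genes, 9 had a probe set that differed between the regions. Higher in floor plate were Kcnq5, a Kv7 channel gene, Kcnj10, an inward rectifier gene, Kcnab1, which encodes a cytoplasmic partner of Kv1 channels, Kcnip3, which encodes a calcium sensor of Kv4 channels, and Kcnk2, a leak channel gene. Lower in floor plate were Kcnk10, a leak channel gene closely related to Kcnk2, the ether-a-go-go channel gene Kcnh1, the G protein-gated inward rectifier gene Kcnj3, and the Kv1 channel gene Kcna4. Fold changes reached 4.84 among the higher and 2.73 among the lower probe sets. By limma with Benjamini-Hochberg adjustment over all 45037 probe sets that are not controls, at an adjusted p under 0.05, 6 of the 161 probe sets were higher in floor plate. That is 3.73%, beside 2.70% of all probe sets. Another 4 were lower, or 2.48%, beside 2.01% of all probe sets. In both directions together the share was 6.21% of the channel probe sets, beside 4.71%. Every channel probe set has a single gene symbol, while 9160 of the 45037 have none and 932 have several. In a fit of only the 34945 with a single symbol, the share was 8.70%, beside 6.04%. With the probe sets averaged per gene, 13.3% of the 83 channel genes were called, beside 8.13% of all genes. With the most variable probe set per gene it was 14.5%, beside 7.8%. That choice, by variance over all 6 arrays, itself favours probe sets that differ between the regions. No test compared these shares.

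The deposited values are log values of each probe set relative to its own median over the 6 arrays. They therefore show how the arrays differ and say nothing on how strongly a channel gene is expressed, nor whether it is expressed at all. Neither the base of the logarithm nor its direction is given in the sources used here. Base 2 was taken, and a higher value was read as more RNA. Differences between the regions, floor plate minus ventral lateral, are given below as log2 differences of the means. Where the regions do not overlap, the floor plate and ventral lateral values nearest to 0 mirror each other, because the median lies midway between them. In bulk tissue, fewer cells of a type and less RNA per cell cannot be told apart.

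On the listed marker genes the regions went with their labels. These lists and the later ones were chosen with earlier results of these data known, so they are no independent check. Of 10 floor plate markers 9 had a probe set higher in floor plate and none had one lower, led by Corin (log2 difference 6.36), Lmx1b (3.72) and Lmx1a (3.71). Of 6 ventral lateral markers 5 had one lower and none had one higher, led by Dbx1 (log2 difference -3.98), Pax6 (-3.92) and Nkx6-2 (-2.88). The marker without a call was Shh in the floor plate list and Ptch1 in the ventral lateral list. The mean log2 value of the floor plate list was between 0.97 and 1.06 on the floor plate arrays and between -2.05 and -0.91 on the ventral lateral arrays, where replicate 2 was the highest.

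The start regions of 4 of the 9 genes are shown, since RefSeq gives each of these a single start and so leaves no choice of promoter. They are Kcnj10, which was higher in floor plate, and Kcnj3, Kcnh1 and Kcna4, which were lower. Each runs 5′ to 3′ on the gene's strand from 250 bases before the start to 50 after it, from RefSeq on build GRCm38.p6, with capitals for the GC box GGGCGG on either strand. Kcnj10 lies at chr1:172340960-172341259, Kcnh1 at chr1:192190527-192190826, Kcnj3 at chr2:55435720-55436019 and Kcna4 at chr2:107290339-107290638, all on the plus strand.
Kcnj10: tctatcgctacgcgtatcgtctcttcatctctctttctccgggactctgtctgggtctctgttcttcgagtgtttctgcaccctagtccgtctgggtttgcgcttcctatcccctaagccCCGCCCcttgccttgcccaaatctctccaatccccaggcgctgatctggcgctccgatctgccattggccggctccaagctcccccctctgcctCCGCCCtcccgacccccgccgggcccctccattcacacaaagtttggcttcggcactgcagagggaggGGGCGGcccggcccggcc
Kcnj3: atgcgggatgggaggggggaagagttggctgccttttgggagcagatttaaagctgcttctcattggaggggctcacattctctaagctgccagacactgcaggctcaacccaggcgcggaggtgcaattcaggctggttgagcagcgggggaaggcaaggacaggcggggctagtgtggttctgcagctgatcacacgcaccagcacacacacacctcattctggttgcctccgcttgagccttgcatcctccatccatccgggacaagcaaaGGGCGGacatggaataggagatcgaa
Kcnh1: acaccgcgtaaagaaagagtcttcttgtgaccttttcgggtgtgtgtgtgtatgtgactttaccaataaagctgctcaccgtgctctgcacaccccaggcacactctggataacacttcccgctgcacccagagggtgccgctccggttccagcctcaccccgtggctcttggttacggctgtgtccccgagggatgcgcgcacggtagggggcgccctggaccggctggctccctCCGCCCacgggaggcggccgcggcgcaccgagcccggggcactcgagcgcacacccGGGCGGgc
Kcna4: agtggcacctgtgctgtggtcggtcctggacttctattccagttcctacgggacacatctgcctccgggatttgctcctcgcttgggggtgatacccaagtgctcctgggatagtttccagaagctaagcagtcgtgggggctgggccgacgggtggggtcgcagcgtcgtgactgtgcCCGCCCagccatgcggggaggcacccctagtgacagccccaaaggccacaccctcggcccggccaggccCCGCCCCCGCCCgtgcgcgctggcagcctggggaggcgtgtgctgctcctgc

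The GC box occurred 3 times in the Kcnj10 window, 1 time in that of Kcnj3, 2 times in that of Kcnh1 and 3 times in that of Kcna4. G and C made up 63.7% of the bases for Kcnj10, 57.7% for Kcnj3, 66% for Kcnh1 and 67.7% for Kcna4, against a median of 52.7% over all 32851 start regions of that table. Of the channel genes, 63 had at least 1 start region there, 88 in all, with a median of 58.2% G and C, so these windows as a set were richer in G and C than the rest. Of the 88, 48.9% held a GC box, against 35.7% of all start regions. The E-box CAGCTG was in the Kcnj3 window and in 27.3% of the channel windows, against 16.3% of all. The TATA box TATAAA was in 5.68% of the channel windows, against 13.6% of all. The forkhead motif TGTTTAC and the homeodomain motif TAATTA were in 0 of the 88 channel windows, against 3.65% and 5.29% of all. All motifs were searched on both strands, each without regard to overlap with another. Such matches describe the sequence of these windows and are no evidence of binding.

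Kcnq5, 1 of 3 Kv7 genes, had the largest difference of all the channel probe sets. Kv7 channels open slowly near the resting potential, and the current they carry in neurons, the M-current, damps repetitive firing. On probe set 1457587_at Kcnq5 had log2 values of 0.82, 1.22 and 1.46 in floor plate and -1.46, -1.04 and -0.82 in ventral lateral samples. Every floor plate array lay above every ventral lateral one, and the spread within the regions was alike. The means were 1.17 ± 0.32 in floor plate and -1.11 ± 0.32 in ventral lateral (SD, n = 3 each), a log2 difference of 2.28 (SE 0.21, adjusted p = 0.0012), or 4.84-fold higher. The other probe sets of Kcnq5 did not pass, with log2 differences of 0.43 (1427426_at, adjusted p = 0.27) and 0.15 (1441071_at, 95% confidence interval -0.19 to 0.49). On the mean of its 3 probe sets, Kcnq5 had a log2 difference of 0.95 (adjusted p = 0.00164 over genes). Kcnq1 (-0.06) and Kcnq3 (-0.04 and 0.10 on 2 probe sets) had smaller log2 differences, none past the threshold.

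**Figure D1:**
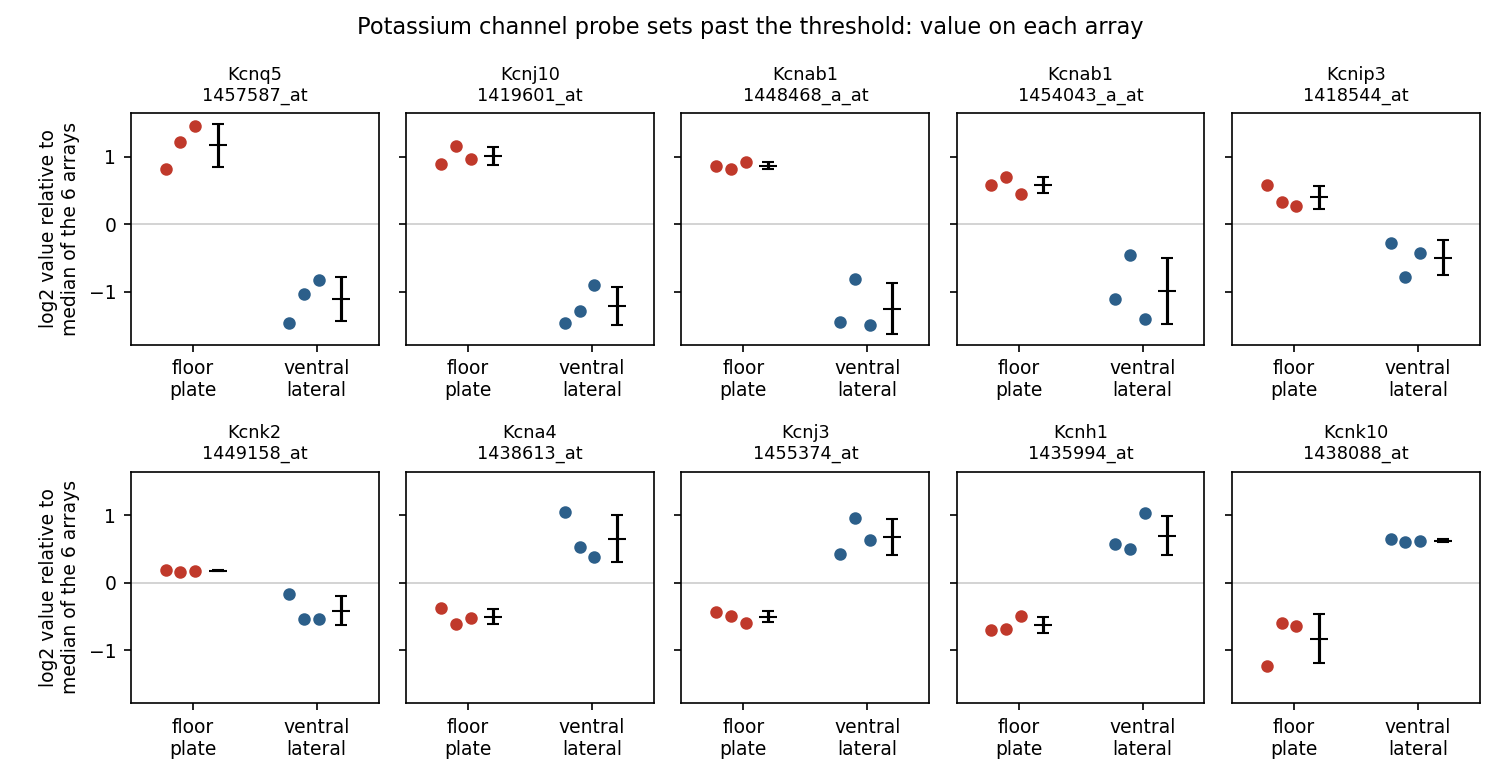
Log2 value of each of the 10 probe sets past the threshold on every array, relative to the median of the 6 arrays. Points are arrays (3 floor plate in red, 3 ventral lateral in blue), and bars show the mean and SD beside them. The regions do not overlap in any panel, and the difference is widest for Kcnq5, Kcnj10 and Kcnab1 and narrowest for Kcnk2.

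Of 15 inward rectifier genes 1 was higher and 1 lower, each on 1 of 31 probe sets. That stands beside 2.70% and 2.01% of all probe sets. Kcnj10 encodes Kir4.1, known in the mature brain as the main potassium channel of astrocytes and other glia. Its single probe set, 1419601_at, had log2 values of 0.90, 1.16 and 0.97 in floor plate and -1.46, -1.28 and -0.90 in ventral lateral samples. The regions were clearly apart, with means of 1.01 ± 0.14 in floor plate and -1.21 ± 0.29 in ventral lateral (SD, n = 3 each). The log2 difference was 2.22 (SE 0.16, adjusted p = 0.000373), or 4.65-fold higher, with the lowest adjusted p of all channel probe sets. Kcnj16, which encodes a Kir subunit that can assemble with Kir4.1, had log2 differences of 0.14 and 0.16 that did not pass.

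Kcnj3 encodes GIRK1, a subunit of the channels through which inhibitory transmitters acting on G protein-coupled receptors quiet neurons. Probe set 1455374_at had log2 values of -0.43, -0.48 and -0.59 in floor plate and 0.43, 0.95 and 0.64 in ventral lateral samples. All floor plate arrays were lower, at a mean of -0.50 ± 0.08 against 0.67 ± 0.26 in ventral lateral (SD, n = 3 each), a log2 difference of -1.17 (SE 0.14, adjusted p = 0.00397). The other 3 probe sets of Kcnj3 had log2 differences of -0.16, -0.16 and 0.11, none past the threshold, and the mean of all 4 had one of -0.35 (adjusted p = 0.0388 over genes). The genes of the other GIRK subunits did not pass. Kcnj6, encoding GIRK2, had log2 differences of -0.40 to 0.15 on 5 probe sets, Kcnj9, encoding GIRK3, -0.12 to 0.30 on 4, and Kcnj5, encoding GIRK4, -0.23 and 0.25 on 2. The largest of these was Kcnj6 on 1425044_at (-0.40, adjusted p = 0.105), where floor plate values of -0.07, -0.33 and -0.24 did not overlap ventral lateral values of 0.28, 0.07 and 0.21. The remaining inward rectifier genes, Kcnj1, Kcnj2, Kcnj4, Kcnj8 and Kcnj11 to Kcnj15, ranged from -0.24 (Kcnj11) to 0.35 (Kcnj12).

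Of the tandem-pore leak channel genes 1 of 12 was higher and 1 lower, and the pair belongs to the same branch. Each was called on 1 of the 18 probe sets of the subfamily, beside 2.70% of all probe sets higher and 2.01% lower. Kcnk2 encodes TREK-1 and Kcnk10 encodes TREK-2, leak channels opened by membrane stretch, heat and lipids. Kcnk10 on probe set 1438088_at had log2 values of -1.24, -0.60 and -0.64 in floor plate and 0.65, 0.60 and 0.62 in ventral lateral samples. The ventral lateral arrays were close together and floor plate replicate 1 was the lowest. The means were -0.82 ± 0.36 in floor plate and 0.62 ± 0.03 in ventral lateral (SD, n = 3 each), a log2 difference of -1.45 (SE 0.17, adjusted p = 0.00355). The other probe set of Kcnk10, 1431613_a_at, had a log2 difference of -0.60 (95% confidence interval -1.10 to -0.11, adjusted p = 0.201) with regions that overlapped.

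Kcnk2 was at log2 values of 0.18, 0.17 and 0.18 in floor plate and -0.17, -0.54 and -0.53 in ventral lateral samples on its single probe set, 1449158_at. Here the floor plate arrays were nearly equal and ventral lateral replicate 1 stood nearest to them. The means were 0.18 ± 0.01 in floor plate and -0.41 ± 0.21 in ventral lateral (SD, n = 3 each), a log2 difference of 0.59 (SE 0.12, adjusted p = 0.0389). This was the call nearest to the threshold, and it was lost in 5 of the 6 fits that left out 1 sample (adjusted p of 0.0976 to 0.128), all but the fit without ventral lateral replicate 1. Kcnk4, which encodes TRAAK of the same branch, had a log2 difference of 0.14 (adjusted p = 0.609). The acid-sensitive TASK channel genes Kcnk3 (-0.20 to 0.12 on 3 probe sets) and Kcnk15 (-0.03) did not pass either. Kcnk1, encoding TWIK-1, had log2 differences of 0.25 and 0.55, neither past the threshold. On the probe set with the larger one, ventral lateral replicate 1 was at -1.34, against -0.09 and 0.16 in replicates 2 and 3. The other 6 genes of the subfamily, Kcnk5, Kcnk6, Kcnk7, Kcnk12, Kcnk13 and Kcnk16, lay between -0.36 (Kcnk6) and 0.23 (Kcnk13).

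Of the 13 genes of Kv1, Kv3 and Kv4 channels, the classical voltage-gated channels, Kcna4 had the only call, on 1 of 34 probe sets. Of all probe sets 4.71% were called. Kcna4 encodes Kv1.4, which inactivates within milliseconds and carries an A-type current. On probe set 1438613_at it had log2 values of -0.38, -0.61 and -0.52 in floor plate and 1.04, 0.53 and 0.38 in ventral lateral samples. The floor plate arrays were close together and ventral lateral replicate 1 was the highest. The means were -0.50 ± 0.12 in floor plate and 0.65 ± 0.35 in ventral lateral (SD, n = 3 each), a log2 difference of -1.15 (SE 0.18, adjusted p = 0.0103). Its other probe set, 1422255_at, was at -0.03 (95% confidence interval -0.27 to 0.22), and the mean of both gave -0.59 (adjusted p = 0.0162 over genes).

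Kcna2, encoding the axonal channel Kv1.2, came just short of the threshold on 1439872_at, with a log2 difference of -0.77 (SE 0.17, adjusted p = 0.0524). Its other probe sets had log2 differences of -0.54, 0.32 and 0.36, so the 4 did not share a direction. Kcnd3, encoding Kv4.3, was also just short of it on 1435720_at, with a mean of 0.30 ± 0.15 in floor plate against -0.17 ± 0.04 in ventral lateral (SD, n = 3 each), a log2 difference of 0.47 (adjusted p = 0.0541). The other 3 probe sets of Kcnd3 gave 0.45, 0.28 and -0.09. Kcnc1, which encodes Kv3.1 of fast-spiking neurons, had its largest value at -0.60 (1443855_at, adjusted p = 0.232) and others of -0.22 to 0.08. Kcna1 (-0.08 to 0.44), Kcna6 (-0.59 to 0.26), Kcnd1 (-0.26 to 0.24) and Kcnd2 (0.17 to 0.25) did not pass on any probe set, nor did Kcna3 (-0.32), Kcna5 (0.09), Kcna7 (0.39), Kcnc2 (0.16) and Kcnc4 (-0.21 and -0.01).

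The silent Kv subunits form no channel alone and join Kv2 subunits to change their gating. None of their 15 probe sets, for 9 genes, passed, where 4.71% of all probe sets did. The largest differences were those of Kcns3 (0.80 on 1445519_at, adjusted p = 0.151) and Kcnv2 (0.65 on 1440537_at, adjusted p = 0.0508). Kcnv2 was at log2 values of 0.64, 0.13 and 0.36 in floor plate and -0.35, -0.13 and -0.34 in ventral lateral samples, without overlap. Of Kcnf1 (largest value -0.29), Kcng1, Kcng2 (-0.38) and Kcng4, no probe set went above 0.04, and those of Kcns1, Kcns2 and Kcnv1 lay between -0.31 and 0.28.

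Genes of the ether-a-go-go family had 1 of 10 probe sets lower and none higher, beside 2.01% and 2.70% of all probe sets. Kcnh1 encodes Kv10.1 (EAG1), a channel of neurons whose opening depends on the preceding membrane potential. On 1435994_at it had log2 values of -0.69, -0.69 and -0.49 in floor plate and 0.57, 0.49 and 1.03 in ventral lateral samples. The regions did not overlap, and their nearest arrays were floor plate replicate 3 and ventral lateral replicate 2. The means were -0.62 ± 0.11 in floor plate and 0.70 ± 0.29 in ventral lateral (SD, n = 3 each), a log2 difference of -1.32 (SE 0.16, adjusted p = 0.00345). The other probe set of Kcnh1, 1418414_at, had one of -0.15 (95% confidence interval -0.56 to 0.25), and the mean of both gave -0.74 (adjusted p = 0.0258 over genes). Kcnh8, encoding an ELK channel, had a log2 difference of -0.71 (SE 0.17, adjusted p = 0.0578), and Kcnh2, encoding the ERG channel that also repolarises the heart, one of -0.57 (SE 0.16, adjusted p = 0.103). Neither passed, although the regions did not overlap for either. Kcnh3 (0.09 to 0.25 on 4 probe sets), Kcnh5 (0.08) and Kcnh7 (-0.04) were near 0.

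**Figure D2:**
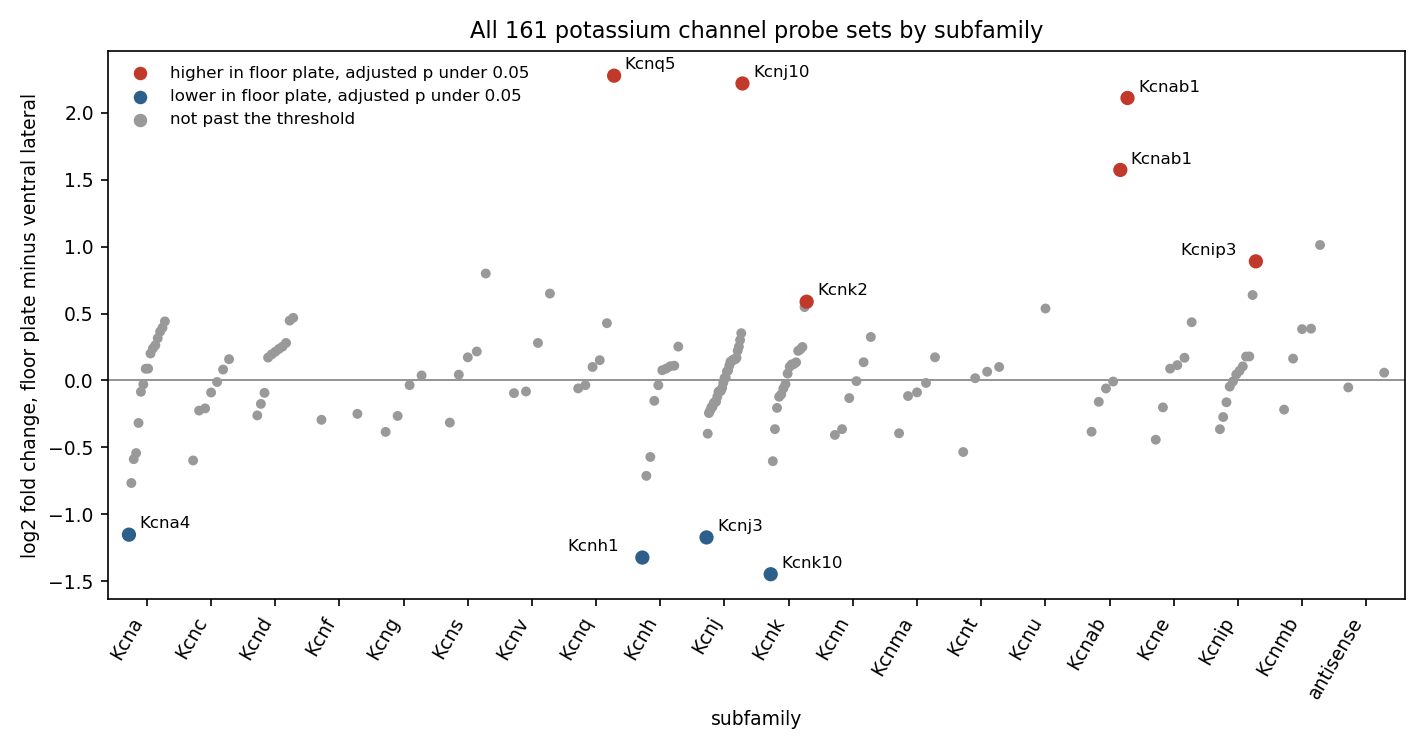
Log2 difference (floor plate minus ventral lateral) of all 161 probe sets, ordered by value within each subfamily along the horizontal axis. Large red points passed the threshold as higher, large blue points as lower, and small grey points did not pass. Calls were made in 7 of the 20 columns. Only Kcnj and Kcnk, the columns with the most probe sets (31 and 18), hold one in each direction.

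No Kcnn or Slo channel gene passed, on 6 and 10 probe sets, where 4.71% of all probe sets did. The 4 genes of small and intermediate conductance channels had log2 differences of -0.41 (Kcnn1, adjusted p = 0.143) to 0.32 (Kcnn3) on 6 probe sets, with Kcnn2 at 0.14 and Kcnn4 at -0.13 and -0.0049. Kcnma1, encoding the large conductance BK channel, had values of -0.39 to 0.17 on 5 probe sets, with an adjusted p of 0.237 for the largest, 1424848_at. The sodium-activated channel genes Kcnt1 (-0.53, 0.02 and 0.07) and Kcnt2 (0.10) did not pass. Kcnu1, encoding Slo3, which responds to voltage and the pH inside the cell, had a log2 difference of 0.54 (adjusted p = 0.315).

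Among auxiliary subunits, 3 of 29 probe sets, for 2 of 15 genes, were higher in floor plate, beside 2.70% of all probe sets, and none was lower, beside 2.01%. Kcnab1 encodes Kvβ1, which binds the cytoplasmic face of Kv1 channels and speeds their inactivation. It was the only gene with several probe sets that passed on all of them. On 1448468_a_at the log2 values were 0.86, 0.81 and 0.91 in floor plate and -1.45, -0.81 and -1.48 in ventral lateral samples, with ventral lateral replicate 2 nearest to floor plate. The log2 difference was 2.11 (SE 0.18, adjusted p = 0.000874), or 4.32-fold higher, from means of 0.86 ± 0.05 in floor plate and -1.25 ± 0.38 in ventral lateral (SD, n = 3 each). On 1454043_a_at the log2 values were 0.59, 0.70 and 0.45 in floor plate and -1.11, -0.45 and -1.41 in ventral lateral samples. Ventral lateral replicate 2 was again nearest, and the log2 difference was 1.57 (SE 0.23, adjusted p = 0.00817). The genes of the other β subunits did not pass, Kcnab2 with log2 differences of -0.38 and -0.16 and Kcnab3 with -0.06 and -0.01.

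Kcnip3 encodes KChIP3, a calcium-binding partner of Kv4 channels that is also known as the transcriptional repressor DREAM and as calsenilin. On 1418544_at it had log2 values of 0.58, 0.33 and 0.27 in floor plate and -0.27, -0.78 and -0.43 in ventral lateral samples, without overlap. The means were 0.40 ± 0.17 in floor plate and -0.49 ± 0.26 in ventral lateral (SD, n = 3 each), a log2 difference of 0.89 (SE 0.15, adjusted p = 0.0178). The other probe set, 1449129_a_at, lay on the same side (0.64, SE 0.20) but did not pass (adjusted p = 0.141). The call was lost without floor plate replicate 1 (adjusted p = 0.0686) and without ventral lateral replicate 3 (0.0553). Kcnip1 (-0.05 to 0.18), Kcnip2 (-0.36 to 0.18) and Kcnip4 (-0.27 to 0.07) encode the other KChIPs and did not pass, nor did the genes of the Kv4 channels they bind.

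The BK β subunit gene Kcnmb1 had the largest difference of all probe sets that did not pass, 1.01 on 1421400_at (SE 0.29, adjusted p = 0.114). Its floor plate values were 0.34, 0.24 and 1.40, against -0.48, -0.24 and -0.33 in ventral lateral samples, so replicate 3 of floor plate stood far above the others. Without that replicate the log2 difference was 0.64 (adjusted p = 0.0449). The remaining β subunit genes Kcnmb2 (-0.22 and 0.16) and Kcnmb4 (0.39, adjusted p = 0.106) did not pass. Of the Kcne genes, which encode small membrane-spanning partners of Kv7 and ERG channels, Kcne1 reached -0.44 (1441035_at, adjusted p = 0.187) and Kcne3 0.43, with Kcne1l, Kcne2 and Kcne4 between 0.09 and 0.17. The non-coding RNA genes Kcnmb4os1 (-0.05) and Kcnmb4os2 (0.06) were near 0.

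Among themselves, the channel probe sets had a median log2 difference of 0.04, beside -0.0040 over all probe sets, and 53.4% of them were above 0, beside 49.2%. The quartiles of the channel values were -0.16 and 0.20, and those of all probe sets -0.13 and 0.12. In 137 of the 161, or 85.1%, the log2 difference was smaller than 0.5 in size, beside 92% of all probe sets. The regions did not overlap for 38 channel probe sets, 20 higher and 18 lower in floor plate, which is 23.6% beside 22.4% of all. An unadjusted p under 0.05 was found for 41, or 25.5%, beside 16.5% of all. The median SE was 0.15 on the log2 scale, beside 0.13 over all probe sets.

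Of the 45 genes with more than 1 probe set, all lay on the same side of 0 in 20, or 44.4%, beside 50.9% of the 9010 such genes on the array. Many of these values were near 0, where the sign carries little. Of the 7 such genes with a call, Kcnab1 alone passed on every probe set, and Kcnq5, Kcnip3, Kcnk10, Kcnh1, Kcnj3 and Kcna4 passed on 1. No gene passed in both directions. Which transcripts each probe set detects was not analysed here, so the calls above hold for the probe set named.

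**Figure D3:**
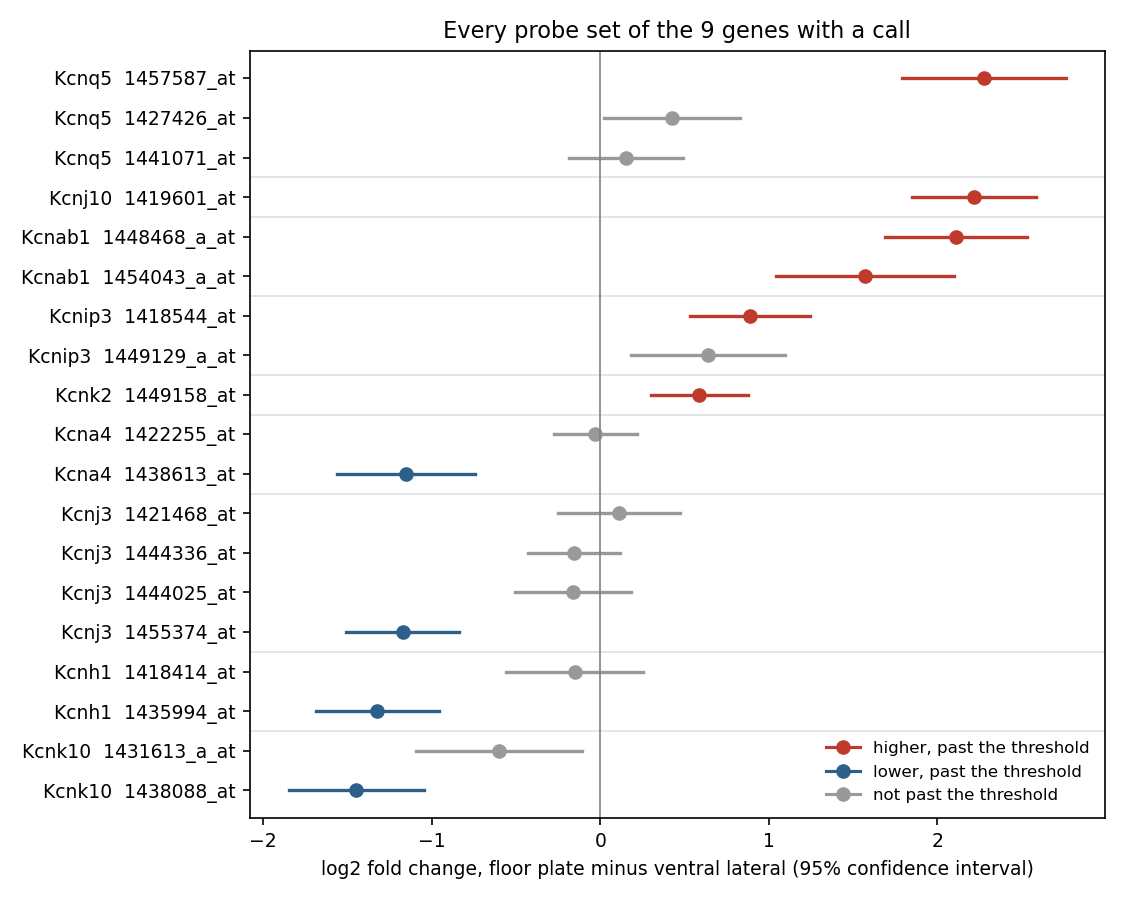
Log2 difference (floor plate minus ventral lateral) with its 95% confidence interval for all 19 probe sets of the 9 genes with a call. Red and blue points passed the threshold as higher and lower, and grey points did not pass. Both probe sets of Kcnab1 passed, while for Kcnj3, Kcnh1, Kcna4 and Kcnq5 1 probe set stood apart from the rest.

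Of 31 listed partners of potassium channels and genes of the potassium gradient, 26 were named by a probe set of their own, and 2 of these had one higher and 2 one lower. Of their 71 probe sets 3 were higher and 4 lower, or 9.86% called, beside 4.71% of all probe sets. Lgi1, whose secreted product is found with Kv1 channels and their partner Adam22 at synapses, was higher on both probe sets. On 1435851_at its mean was 1.65 ± 0.12 in floor plate against -2.24 ± 0.89 in ventral lateral (SD, n = 3 each), a log2 difference of 3.90 (adjusted p = 0.00172). Rest, the repressor of neuronal genes, was higher on 1 of 4 probe sets (0.75, adjusted p = 0.0181). Cntnap2 (log2 difference -2.01, adjusted p = 0.00484) and Cntn2 (-1.37, adjusted p = 0.00331), which encode the adhesion molecules that gather Kv1 channels along axons, were lower, each on 2 probe sets. Their other probe sets did not pass, at -0.31 for Cntnap2 (1450758_at) and -0.76 (1435166_at) and -0.03 (1450523_at) for Cntn2. The Kv4 partner genes Dpp6 and Dpp10, the sulfonylurea receptor genes Abcc8 and Abcc9, the ankyrin genes Ank2 and Ank3 and the measured sodium pump and chloride cotransporter genes did not pass.

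Neuronal markers moved with the regions as well. Of 12 neuron markers 4 had a probe set lower in floor plate and none had one higher, led by Syt1 (log2 difference -1.10), Ina (-1.05) and Nefl (-0.68). The mean log2 value of that list was between -0.28 and -0.07 on the floor plate arrays and between -0.01 and 0.42 on the ventral lateral arrays. All 6 GABAergic neuron markers were lower, led by Gad1 (-4.56), Slc32a1 (-4.48) and Gata2 (-4.41), with list means of -1.77 to -1.46 on the floor plate arrays and 1.21 to 1.92 on the ventral lateral arrays. Of 8 neural progenitor markers Prom1 was higher (0.62) and Sox1 lower (-2.83), and the list means were -0.14 to -0.06 on the floor plate arrays and 0.01 to 0.03 on the ventral lateral arrays. Without Sox1, a step chosen after the values were seen, the order turned: the list means were 0.01 to 0.06 on the floor plate arrays and -0.05 to -0.03 on the ventral lateral arrays, and the median log2 difference of all 16 probe sets of the list was 0.02. The part of the cell make-up in the lower values of Kcnk10, Kcnh1, Kcnj3 and Kcna4, or in the higher ones, was not tested.

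Markers of tissue outside the neural tube showed few differences. None of 6 blood, 2 neural crest and 3 macrophage marker genes passed in either direction. Of 6 endothelial markers Cldn5 was lower (-0.68), and of 7 markers of mesenchyme and mural cells Twist1 was higher (2.11). The list means of blood, endothelium, mesenchyme, neural crest and macrophages overlapped between the regions. Kcnj8, the inward rectifier gene typical of mural cells, had a log2 difference of 0.07 (adjusted p = 0.919). Since the values are centred, it cannot be said from them which of these markers were at background.

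**Figure D4:**
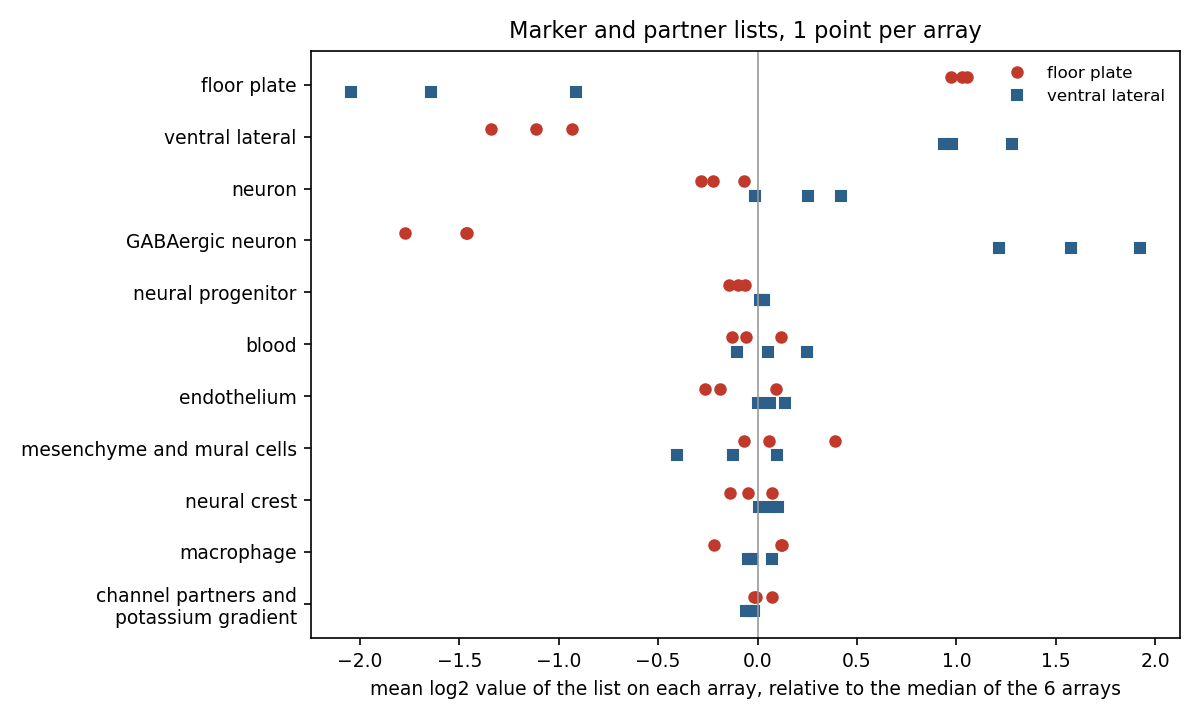
Mean log2 value of each marker list and of the channel partner list on every array, relative to the median of the 6 arrays (red circles floor plate, blue squares ventral lateral). The floor plate, ventral lateral and GABAergic neuron lists separate the regions widely, the neuron list by less, and the lists of other tissues overlap. The small gap of the neural progenitor list turns round when Sox1 is left out.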

How the data were processed

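RNA was measured on Affymetrix mouse arrays in 3 floor plate and 3 ventral lateral samples. Per the labels, 5 ng of RNA was used for each, with NuGEN Ovation V2 amplification and a biotin label. RMA is named in the submitters' processing notes, without a version. The deposited values, taken as log2, had been centred by the authors: 100% of 45101 probe sets had a median over the arrays within 1e-05 of 0. The centring step, the log base and the direction are unknown here. Array medians lay between -0.0031 and 0.0045.

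Probe sets were named with GEO's platform annotation, and all 83 channel genes matched RefSeq (GRCm38.p6) by Entrez identifier with 0 renamed. After removal of 64 control probe sets, 45037 entered the fit (limma 3.58.1 in R 4.3.3, lmFit then eBayes), floor plate minus ventral lateral. P-values were adjusted by Benjamini-Hochberg over all of them, with a threshold of 0.05. Every probe set was its own unit, since centred values give no level by which to choose 1 per gene, and none was filtered out. A gene counts as higher or lower in a list where at least 1 probe set passed. Member genes with a call are all named with every probe set, as is the largest difference without a call in each subfamily, and the 3 largest calls in each marker list. Names beyond these were chosen after their values were seen. The members and lists were chosen with earlier results of these data known. Alternatives were gene-level summaries, subsets of probe sets, quantile normalization, centring of arrays, weights per array, a robust eBayes, a block for the replicate number, stricter and looser thresholds, and the removal of each sample in turn. The fit was tested on simulated data. Python 3.11.15, pandas 2.3.3 and matplotlib 3.10.9 were used for tables and plots.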

Additional observations from a re-analysis of the deposited data

How the results depend on the processing

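The threshold and single samples moved the count of channel genes with a higher probe set, 5 in the fit reported. It was 3 at an adjusted p under 0.01 or when a 2-fold change was also asked, and 8 at an adjusted p under 0.10. Counts over all genes are not given for these thresholds. With a 2-fold change asked, 4 of 161 channel probe sets were higher and 4 lower, beside 615 and 408 of all 45037. Leaving out 1 sample gave 3 to 7 genes with a higher probe set, with 3 in the fits that lacked floor plate replicate 1 or ventral lateral replicate 3. The counts of lower genes (3 to 6), higher probe sets (4 to 9) and lower probe sets (3 to 6) stayed within 1.5 times under the alternatives run. Over all probe sets, 753 to 991 were higher and 510 to 743 lower when 1 sample was left out, against 1218 and 903. In these fits 4.97% to 8.07% of the channel probe sets were called, beside 2.8% to 3.69% of all. For the 10 called probe sets, 140 refits kept the call and 8 lost it, 6 of Kcnk2 and 2 of Kcnip3, with no change of sign. That tally counts gene-level fits, which are not refits of the probe set itself, and leaves out the other thresholds. At an adjusted p under 0.01, Kcna4 (0.0103), Kcnip3 (0.0178) and Kcnk2 (0.0389) did not pass. With 34945 probe sets of 1 symbol tested, Kcna2, Kcnd3, Kcnh8 and Kcnv2 passed as well, giving 8 higher and 6 lower (8.70%, beside 6.04% of the probe sets in that fit). When 1 sample was left out, Kcnj3 on 1421468_at ranged from -0.027 to 0.26 and changed sign in the fit lacking floor plate replicate 1. Kcna4 on 1422255_at ranged from -0.082 to 0.040 and changed sign in those lacking floor plate replicate 2 or ventral lateral replicate 3. Gene-level fits give no count of probe sets. Same-numbered samples had correlations of 0.0096, 0.12 and 0.11 between their deviations, and differently numbered ones had correlations of -0.15 to 0.027. The values of 0.12 and 0.11 were the highest of all, so the correlations do not show that the samples were unpaired. The labels do not say whether the numbers mark pairs, and the fit reported did not pair them. With a replicate block, 5 probe sets were higher and 5 lower (6.21%, beside 4.23% of all). Kcnk2 lost its call (adjusted p = 0.0615), and Kcnc1 on 1443855_at gained one (0.0381).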
